A study of Oryctolagus cuniculus with 6 samples.

Results

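The mitochondrial genome transcripts described here are the rows of the deposited gene table that lie on the sequence named MT, 37 of 29587 rows. The rule that selects them uses position alone. By name and length they comprise 13 mRNAs of 204 to 1812 bp, 2 rows of ribosomal RNA length (957 and 1579 bp) and 22 rows of transfer RNA length (59 to 75 bp). The 24 rows without a symbol are given by length and position, since no source used here names them. RNA came from the airway of 3-month-old New Zealand rabbits. In the high cuff pressure group, a 3.0 mm tracheal tube was placed 13 cm deep and its cuff, the balloon that seals the airway, was kept inflated to 35 cmH2O for 2 h. This group and the control group had 3 libraries each. How control animals were handled, and how long after inflation tissue was taken, is not given in the labels.

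Mitochondrial DNA is a small circular genome kept in many copies per cell. Its mRNAs encode core subunits of the respiratory chain and of ATP synthase, while its rRNAs and tRNAs serve the mitochondrion's own ribosomes. Both strands are transcribed as long precursors, which are cut mainly at the tRNAs that lie between the other genes, so a transcript's final level depends on its stability as well as on its synthesis. Vertebrate mitochondrial mRNAs mostly carry short poly(A) tails, the rRNAs and tRNAs carry little or none, and human ND6 lacks a stable tail. The libraries were made from polyadenylated RNA, so the levels of the tail-poor classes here are those recovered by that selection and not their levels in the tissue.

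The 6 libraries held 10501734 to 14415754 counts. Markers of epithelium summed to 1151 to 1360 CPM (counts per 1000000, TMM-normalised) in high cuff pressure libraries and 848 to 945 CPM in control libraries. Those of smooth muscle summed to 397 to 6093 CPM and 4680 to 7713 CPM, so the material labelled as epithelial cells, but taken as mucosa per the protocol, held other tissue too. High cuff pressure replicate 1 stood apart with the 397 CPM. Neutrophil markers summed to 634 to 2492 CPM in high cuff pressure libraries and 3.86 to 21.0 CPM in control libraries, and 5 of 5 were called higher. Multiciliated cell markers summed to 443 to 1215 CPM and 1483 to 2415 CPM, with 0 of 4 called. Basal cell markers summed to 420 to 2428 CPM and 151 to 355 CPM, with 0 of 2 called. In the other lists LUM, of 4 fibroblast markers, was lower and PECAM1, of 3 endothelial markers, was higher, while 0 of 3 epithelial, 0 of 3 smooth muscle, 0 of 2 secretory and 0 of 1 red blood cell markers were called and 0 of 3 cartilage markers passed the count filter. The sums of the epithelial, neutrophil, multiciliated and basal lists did not overlap between groups, and neither did the mitochondrial total described below. The epithelial and basal sums moved through KRT8 (mean 934 CPM with high cuff pressure and 506 in controls) and KRT5 (1234 and 237 CPM). Other members did not rise with them: EPCAM had means of 148 and 188 CPM, CDH1 197 and 212 CPM, and TP63 35.8 and 35.0 CPM. The multiciliated sum moved mostly through DNAH5 (mean 239 CPM with high cuff pressure and 991 in controls) and CFAP43 (140 and 482 CPM). FOXJ1 (293 and 322 CPM) and PIFO (184 and 290 CPM) overlapped between groups. The part of these cell types in the mitochondrial results was not tested. In such bulk samples, a change in the mix of cells and a change in RNA per cell cannot be told apart.

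Mitochondrial transcripts made up a larger part of the libraries after high cuff pressure. They took 30.5%, 27.8% and 28.1% of all counts in the 3 high cuff pressure libraries, against 11.5%, 5.28% and 7.38% in the 3 control libraries. The lowest high cuff pressure library was 2.42 times the highest control library, so the groups did not overlap. High cuff pressure libraries were close to each other, with a highest to lowest ratio of 1.10, while control libraries spread over a ratio of 2.18. The group means were 28.8% ± 1.51 and 8.06% ± 3.17 (SD, n = 3 each), a difference of 20.8 percentage points (exact permutation test over libraries, two-sided p = 0.10, the smallest that 3 against 3 allows). Counting error was small beside these differences: the 95% Wilson interval of the lowest control library ran from 5.27% to 5.30%, and covers counting error only. With the 1% most abundant nuclear genes left out of the total, the shares were 40.0%, 38.5% and 37.6% with high cuff pressure and 18.0%, 7.90% and 10.6% in controls, so the groups stayed apart. Without high cuff pressure replicate 1, which had the low smooth muscle sum, the difference in percent of all counts was 19.9 points.

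**Figure D1:**
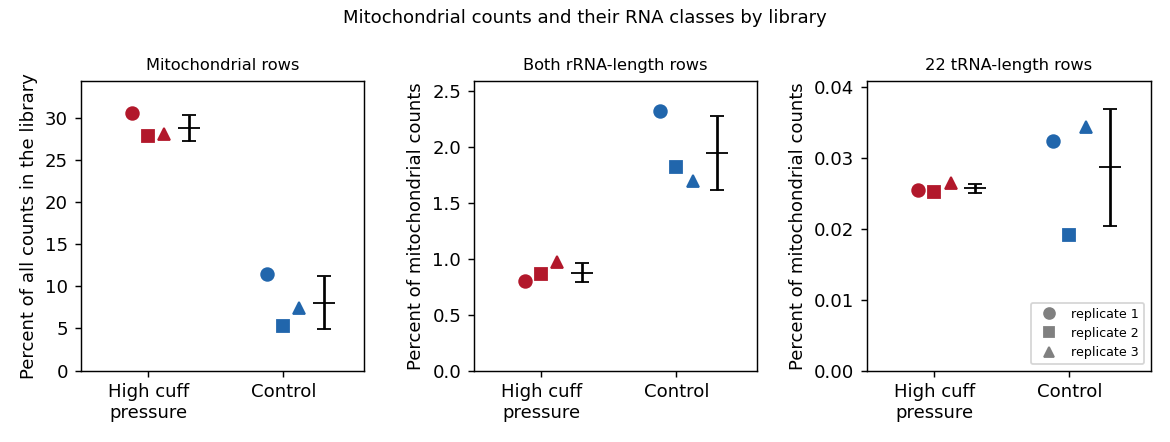
Share of the mitochondrial rows in all counts of each library (left), and shares of the rRNA-length rows (middle) and of the tRNA-length rows (right) in the mitochondrial counts, in percent on axes that start at 0. Each symbol is a library, and bars give the mean ± SD of 3; the groups are apart in the left and middle panels and overlap in the right one, where control libraries run from 0.0192% to 0.0344%.

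COX1, the catalytic core subunit of cytochrome c oxidase (complex IV), was the most abundant gene of every high cuff pressure library, with 10.6%, 7.95% and 9.76% of all counts. In the control libraries it held 3.21%, 1.71% and 1.68% and ranked second in each. The 5 most abundant genes were all mitochondrial in each of the 3 high cuff pressure libraries, against 1, 1 and 2 of the top 5 in the control libraries. Among the top 20 genes, 11 were mitochondrial in each high cuff pressure library, against 9, 6 and 9 in the controls.

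All 13 mRNAs were higher in every high cuff pressure library than in any control library. Of the 37 rows, 24 passed the filter on low counts and 5 of those were called higher, all of them mRNAs, with 0 lower (adjusted p under 0.05 in edgeR's quasi-likelihood fit of 13724 genes). Over all genes tested, 3.67% were called higher and 1.62% lower. Without overlap between groups, 25 of the 37 rows were higher (13 mRNAs and 12 tRNA-length rows), and 18.6% of all genes tested were. The 25 include tRNA-length rows that did not pass the filter, while the 18.6% covers only genes that passed it, so these are not like for like. Such rows held few counts. The row at MT 5281 had 6, 2 and 6 with high cuff pressure, against 2, 1 and 1 in controls, so it was apart only after scaling. The labels give 3 libraries per group without saying more of their origin, so a p-value is read against the spread between libraries, which may be technical. The 13 mRNAs had log2 fold changes of 1.81 to 2.45 with a median of 2.06, while the median over all genes tested was -0.01. The threshold ran through a tight group: the 5 called mRNAs had adjusted p of 0.0404 to 0.0482, the other 8 had 0.0507 to 0.0616, and all 13 had an unadjusted p under 0.05. Being called therefore does not set the 5 apart from the 8. Leaving out high cuff pressure replicate 1 gave 11 called mRNAs, while leaving out any of the other 5 libraries gave 0, with log2 fold changes between 1.51 and 2.95 in these 6 fits. The calls over all genes moved in the same way: 9.68% were called higher without high cuff pressure replicate 1, against 0.0214% and 1.74% without high cuff pressure replicates 2 and 3. Leaving out control replicate 1 gave 0.485%, and leaving out either of the other controls gave 0%.

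Among the complex IV subunits, COX1 had 118780, 98166 and 106480 CPM in high cuff pressure libraries, against 31057, 14118 and 13995 CPM in control libraries. Its log2 fold change was 2.45 ± 0.53 (SE; adjusted p = 0.045), the highest of the mRNAs. COX3, which with COX1 and COX2 forms the enzyme's core, had 38063, 47504 and 38602 CPM, against 12219, 4936 and 7120 CPM in controls. It rose by 2.35 ± 0.49 on the log2 scale (adjusted p = 0.0404), the smallest adjusted p of the rows. COX2, the subunit that takes electrons from cytochrome c, had 28630, 36648 and 17353 CPM, against 9942, 3407 and 5704 CPM in controls. Its high cuff pressure libraries differed more than 2-fold, which is the widest spread of the 13 mRNAs in that group, and its log2 fold change of 2.12 ± 0.54 did not pass (adjusted p = 0.0605).

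CYTB, the only subunit of the cytochrome bc1 complex (complex III) that mitochondrial DNA encodes, had 36233, 38441 and 36422 CPM in high cuff pressure libraries, against 11508, 4031 and 6276 CPM in controls. It rose by 2.35 ± 0.50 on the log2 scale (adjusted p = 0.0444), and the high cuff pressure libraries were closer to each other for CYTB (37032 ± 1224 CPM, SD, n = 3) than the controls were (7272 ± 3837 CPM).

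The ND genes encode the membrane core of NADH dehydrogenase (complex I), and 2 of the 7 were called. ND1, which lies next to the ubiquinone site, had 10881, 10614 and 12941 CPM in high cuff pressure libraries, against 4309, 1520 and 2457 CPM in controls (log2 fold change 2.06 ± 0.46, adjusted p = 0.0482). ND3 had 2970, 5184 and 3291 CPM, against 1223, 331 and 746 CPM in controls (2.31 ± 0.52, adjusted p = 0.0482). ND2, ND4, ND4L and ND5 did not pass, with log2 fold changes of 1.96 to 1.99 and adjusted p of 0.0513 to 0.0616, although their groups did not overlap. ND6, the only mRNA on the minus strand of the table, had 46.4, 44.9 and 33.0 CPM, against 16.7, 3.98 and 8.52 CPM in controls. Its log2 fold change of 2.09 ± 0.49 (adjusted p = 0.0507) lay among those of the 12 plus strand mRNAs, at a far lower level: it rested on 471, 382 and 436 counts with high cuff pressure and 196, 62 and 117 in controls.

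ATP6 and ATP8 encode membrane subunits of ATP synthase (complex V), ATP6 being the proton channel. ATP6 had 29601, 37232 and 24321 CPM in high cuff pressure libraries, against 11957, 4649 and 8019 CPM in controls (log2 fold change 1.89 ± 0.48, adjusted p = 0.06). ATP8 had 9903, 8937 and 8164 CPM, against 3816, 1398 and 2496 CPM in controls (1.81 ± 0.44, adjusted p = 0.0555). These were the lowest log2 fold changes of the 13 mRNAs, with standard errors that overlap those of the rest. The ATP8 row, at MT 7796 to 7999, shares 43 bp with ATP6, at MT 7957 to 8636, and ND4L shares 7 bp with ND4; how reads in shared stretches, or reads that also match nuclear copies of mitochondrial DNA, were counted is not given, so levels within these pairs are uncertain.

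**Figure D2:**
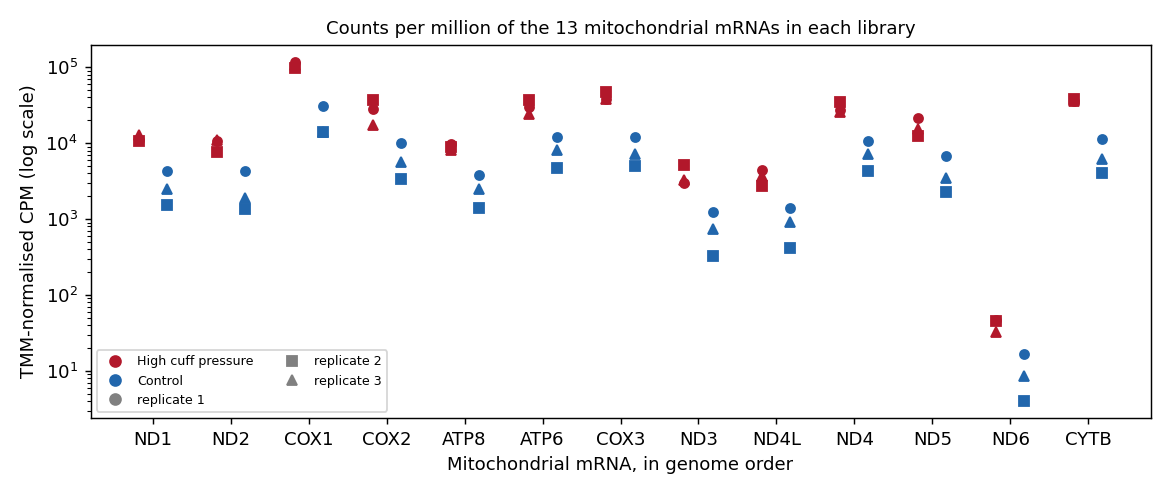
TMM-normalised CPM of the 13 mitochondrial mRNAs in each library, on a log axis and in genome order, with high cuff pressure libraries on the left of each pair and control libraries on the right. The groups do not overlap for any of the 13, and ND6 lies far under the others, at 33.0 to 46.4 CPM with high cuff pressure and 3.98 to 16.7 CPM in controls.

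The rRNA-length rows did not pass the test. The 957 bp row, at MT 70 to 1026, had 1215, 932 and 1232 CPM in high cuff pressure libraries, against 973, 353 and 363 CPM in controls. Control replicate 1 lay above high cuff pressure replicate 2, so the groups overlapped (log2 fold change 1.00 ± 0.44, adjusted p = 0.177). The 1579 bp row, at MT 1093 to 2671, had 1503, 2026 and 1735 CPM, against 1613, 438 and 678 CPM in controls (0.95 ± 0.49, adjusted p = 0.233), again with control replicate 1 inside the high cuff pressure range. Without control replicate 1 the log2 fold changes of both rows were 1.66, and they were not called.

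The 22 tRNA-length rows together had 886, 736 and 1070 counts in high cuff pressure libraries, against 424, 130 and 290 in controls. Of these rows, 9 passed the filter and 0 were called, although 6 had an unadjusted p under 0.05, all higher; 13 did not pass the filter. The log2 fold changes of the 9 ran from 1.45 to 3.18, but a row could pass on its high cuff pressure libraries alone, so that range does not describe all 22. The 70 bp row at MT 3704 to 3773, between ND1 and ND2, had the highest value. It had 111, 156 and 177 counts in high cuff pressure libraries, against 42, 5 and 12 in controls (log2 fold change 3.18 ± 0.76, adjusted p = 0.0532). The 67 bp row at MT 9838 to 9904, between ND3 and ND4L, had the most counts of the class: 319, 181 and 278 with high cuff pressure, against 117, 48 and 108 in controls (1.82 ± 0.44, adjusted p = 0.0546). The row at MT 4971 had a log2 fold change of 2.05, that at MT 9421 had 1.77, and those at MT 2672, 3851, 6970, 7726 and 11702 had 1.45 to 1.61, all with adjusted p of 0.0917 to 0.208. Depth limited this class: 3 rows in control replicate 2 and 4 in control replicate 3 had 0 counts, where the upper limit is 3 counts each, and no row was at 0 in the other 4 libraries.

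**Figure D3:**
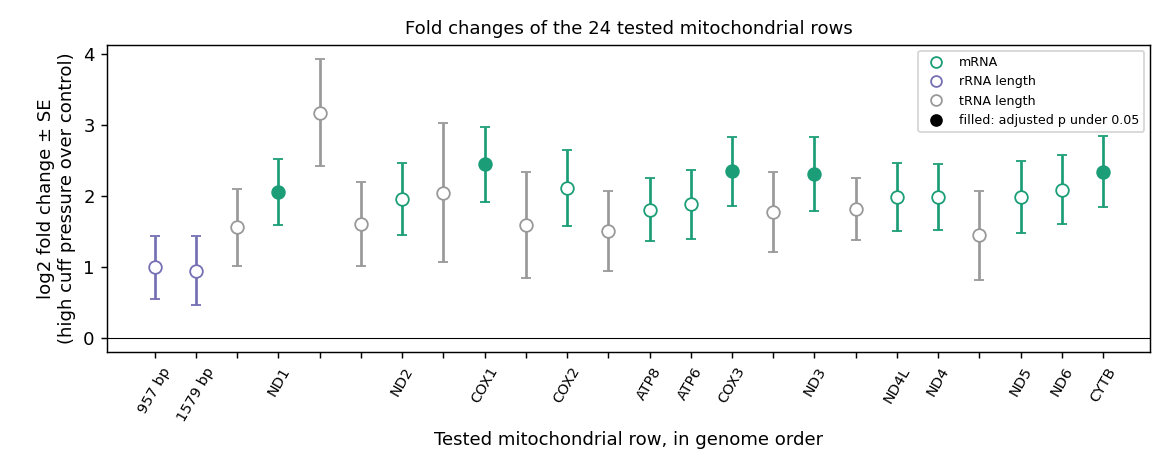
Log2 fold change (high cuff pressure over control) with its standard error for the 24 mitochondrial rows that passed the filter, in genome order; unlabelled ticks are tRNA-length rows. Filled symbols mark the 5 rows with an adjusted p under 0.05, and the rRNA-length rows, at 1.00 and 0.95, lie under all 13 mRNAs.

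Composition was then described within the mitochondrial counts, where the rise of the total cancels. mRNAs made up 99.2%, 99.1% and 99.0% of mitochondrial counts in high cuff pressure libraries, against 97.7%, 98.2% and 98.3% in controls. The rRNA-length rows made up 0.796%, 0.862% and 0.969%, against 2.32%, 1.81% and 1.70% in controls. Every high cuff pressure library thus had a lower rRNA share than every control library (0.875% ± 0.0873 and 1.94% ± 0.330, SD, n = 3 each; exact permutation test, two-sided p = 0.10, the smallest possible). As a ratio, there were 125, 115 and 102 mRNA counts for each rRNA count with high cuff pressure, against 42.1, 54.1 and 57.9 in controls. The ratio of the group means was 2.22, and the groups were far apart relative to their spread (114 ± 11.3 and 51.4 ± 8.24). Between the rRNA-length rows themselves the groups overlapped: the per-base ratio of the 1579 bp row to the 957 bp row was 0.750, 1.32 and 0.853 with high cuff pressure, against 1.01, 0.752 and 1.13 in controls (exact permutation test, two-sided p = 1.0; difference in means 0.0109, with SDs of 0.303 and 0.193). The tRNA share overlapped between groups, at 0.0255%, 0.0252% and 0.0264% with high cuff pressure against 0.0324%, 0.0192% and 0.0344% in controls (exact permutation test, two-sided p = 0.60).

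A fit with the mitochondrial total as library size gave the same order but little beyond it. It called 0 mitochondrial rows higher and 2 lower, which were the rRNA-length rows (log2 fold changes of -1.14 and -1.16, adjusted p = 0.0487 and 0.0491). On this scale 0.67% of all genes were called higher and 90.7% lower, since nearly every nuclear gene is lower relative to a total that grew. The 2 lower calls among 24 tested mitochondrial rows lie far under that share, but a lower call here does not set a row apart from most genes. With so many genes called, the adjustment hardly changed the p-values, which were 0.0444 and 0.0448 unadjusted in this fit. Leaving out any high cuff pressure library or control replicate 3 gave 0 lower calls, and leaving out control replicate 2 gave 1. The share of all genes called in those fits was not taken. Relative to the mitochondrial total, the mRNAs ran from -0.39 (ATP8) to 0.24 (COX1), and none was called. Counts over the mitochondrial total were separated upward for 1 of the 37 rows (CYTB) and downward for 4: ATP8, both rRNA-length rows and the 66 bp row at MT 1027, which had 1 to 4 counts a library. Among all genes tested the shares separated were 0.532% upward and 89.6% downward.

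Among the mRNA counts, complex IV took the largest part in every library. Its share was 54.7%, 53.6% and 53.5% in high cuff pressure libraries, against 48.8%, 52.5% and 44.5% in controls. Complex III, which is CYTB alone, had 10.7%, 11.3% and 12.01%, against 10.6%, 9.43% and 10.4% in controls. Both shares were higher in every high cuff pressure library, for complex III at 10.69% against 10.56% in the closest pair. Complex I had 22.9%, 21.5% and 23.7%, against 26.1%, 23.9% and 27.7% in controls. Complex V had 11.7%, 13.6% and 10.7%, against 14.5%, 14.1% and 17.4% in controls, so the shares of complexes I and V were lower in every high cuff pressure library. Each of the 4 differences (5.35, 1.20, -3.18 and -3.37 points for complexes IV, III, I and V) had the smallest p an exact permutation test allows here, two-sided p = 0.10. The shares sum to 100%, so these are not 4 separate results. Counted per base of row length, complexes III, IV and V stayed apart but complex I overlapped (-1.08 points, exact permutation p = 0.40). With ATP8, ATP6, ND4L and ND4 left out, because of their shared bases, the groups overlapped for complex I (-3.06 points, p = 0.30), complex III (0.585 points, p = 0.60) and complex IV (2.48 points, p = 0.30 in the same exact permutation test).

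**Figure D4:**
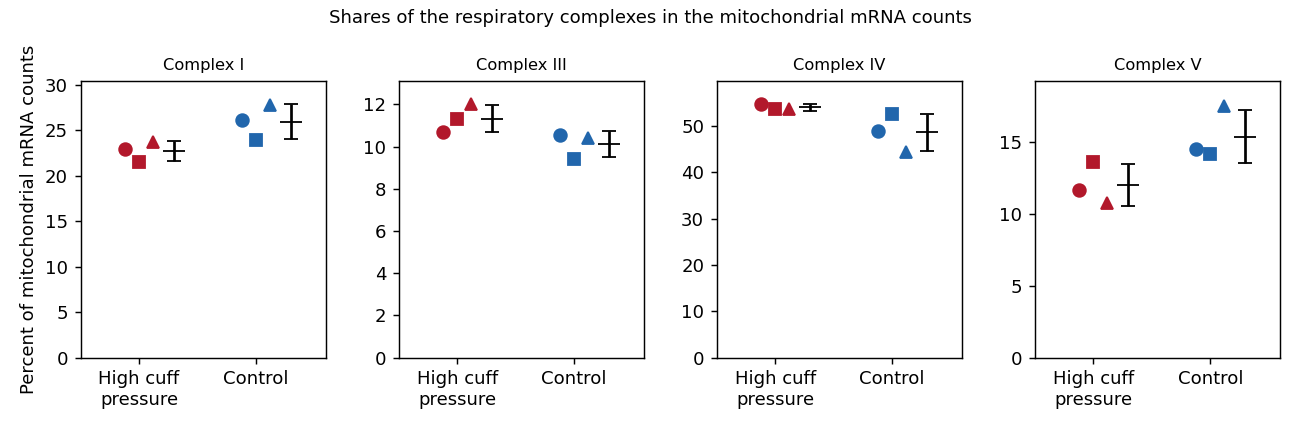
Percent of the mitochondrial mRNA counts that belong to subunits of complexes I, III, IV and V in each library, with each axis starting at 0 and bars for the mean ± SD of 3 libraries. Complexes III and IV are higher and complexes I and V lower in every high cuff pressure library, with narrow margins in the closest pairs (23.7% against 23.9% for complex I and 10.69% against 10.56% for complex III).

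For most single transcripts the shares overlapped between groups, since libraries of the same group differed widely. COX1 was 35.0%, 28.9% and 35.1% of mRNA counts with high cuff pressure, against 28.5%, 33.0% and 23.2% in controls, with overlap. COX2 was 8.45%, 10.8% and 5.72%, against 9.12%, 7.97% and 9.46% in controls, and its high cuff pressure libraries lay both above and below all controls. The per-base ratio of COX1 to COX2 accordingly ran from 1.19 to 2.72 with high cuff pressure and from 1.09 to 1.84 in controls. Only CYTB (higher) and ATP8 (lower) had shares that did not overlap: ATP8 had 2.92%, 2.63% and 2.69%, against 3.50%, 3.27% and 4.14% in controls (exact permutation p = 0.10 for each). That is the smallest p possible here and 13 shares were looked at, so the test does not set either apart from chance. CYTB per base was 2.79, 3.04 and 2.36 times ND1 with high cuff pressure, against 2.24, 2.22 and 2.14 times in controls (exact permutation p = 0.10). This ratio uses the same CYTB counts, so it is not a separate result. Distances between libraries were taken over the mRNA shares alone, without the rRNA- and tRNA-length rows. To turn the mRNA composition of a library into that of another, 4.96 to 11.3% of mRNA counts had to move within the high cuff pressure group. The range was 5.30 to 9.85% within controls and 5.20 to 15.1% between the groups. Of the 9 distances between groups, 7 lay within the range seen inside groups, while those of control replicate 3 to high cuff pressure replicates 1 and 3 (12.7 and 15.1%) lay above it.

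Ranked by counts per base, the 13 mRNAs had a similar order in both groups. COX1 ranked first in 5 of the 6 libraries and had rank 4 in control replicate 3, where ATP8 was first. COX3 was second in all 3 high cuff pressure libraries, against ranks 4, 4 and 3 in controls, and ATP8 ranked 3, 5 and 3 with high cuff pressure, against 2, 2 and 1 in controls. ND4 ranked 7 and ND6 13, the last, in all 6 libraries. The ratio of ATP8 to ATP6 per base was near 1 in both groups (1.01 ± 0.183 and 1.03 ± 0.0307, SD, n = 3 each), while ND4L to ND4 was 0.596 ± 0.196 and 0.550 ± 0.0864. Neither ratio differed beyond the spread between libraries (exact permutation tests, two-sided p = 1.0 and 0.70).

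By strand, 9 rows lie on the minus strand of the table: ND6 and 8 tRNA-length rows. ND6 was 0.0137%, 0.0132% and 0.0109% of mRNA counts with high cuff pressure, against 0.0154%, 0.00932% and 0.0141% in controls, with overlap between groups (exact permutation p = 0.80). ND5, whose row overlaps the end of ND6 by 5 bp on the other strand, had 133, 81.0 and 135 times the per-base count of ND6 with high cuff pressure, against 116, 164 and 118 times in controls. Whether counting used strand is not given, so reads of the other strand could be part of the ND6 counts. The 8 minus strand tRNA-length rows made up 10.5%, 4.48% and 9.25% of tRNA-length counts with high cuff pressure, against 7.78%, 5.38% and 1.38% in controls, again with overlap (exact permutation p = 0.30).

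The tRNA-length rows were uneven along the genome. Of 12 intervals between neighbouring genes, 11 overlapped between groups, and the other, between the rRNA-length rows, had 1 to 4 counts a library. As counts per 1000000 mitochondrial counts, the row between ND3 and ND4L had 91.9, 62.0 and 68.7 with high cuff pressure, against 89.5, 70.8 and 128 in controls. The 3 rows between ND1 and ND2 had 42.4, 57.9 and 52.8, against 42.8, 13.3 and 19.0 in controls, where control replicate 1 lay inside the high cuff pressure range. The 5 rows between ND2 and COX1, of which 4 are on the minus strand, had 37.2, 6.16 and 39.0 with high cuff pressure, against 44.4, 16.2 and 4.74 in controls. In that interval high cuff pressure replicate 2 and control replicates 2 and 3 were low, with 18, 11 and 4 counts, while high cuff pressure replicates 1 and 3 and control replicate 1 were high, with 129, 158 and 58 counts. This split ran across the groups.

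**Figure D5:**
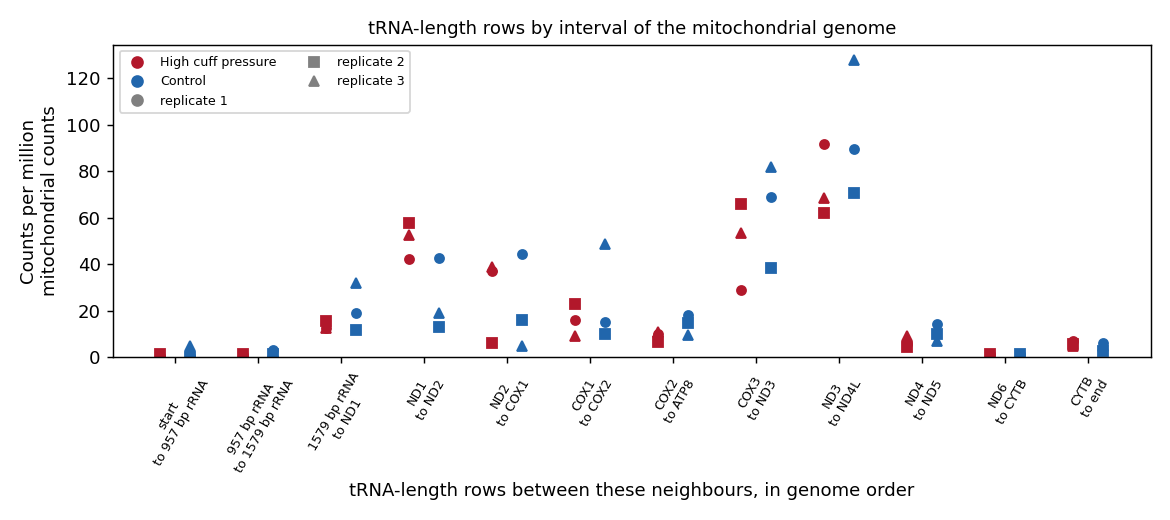
Counts of the tRNA-length rows per 1000000 mitochondrial counts in each library, summed by the interval between neighbouring genes, in genome order. The interval from ND3 to ND4L is the highest in 5 of 6 libraries, and the interval from ND2 to COX1 runs from 6.16 to 39.0 with high cuff pressure and from 4.74 to 44.4 in controls.

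Few nuclear genes that serve the mitochondrial genome were called. Of 136 tested genes in lists for mitochondrial DNA maintenance, RNA, translation, quality control and respiratory subunits, 2 were called higher and 0 lower, with a median log2 fold change of 0.14, so that the share called lay under the 3.67% of all genes. The nuclear-encoded subunits of complexes I, III, IV and V assemble with the mitochondrial products. Their medians were 0.44, 0.40, 0.41 and 0.51, against -0.01 over all genes and 2.06 for the mitochondrial mRNAs. These medians cover 22, 4, 7 and 10 tested genes, of 37, 9, 12 and 15 listed. Summed CPM overlapped between groups for complexes I, IV and V. For complex III the sums were 548 to 748 CPM with high cuff pressure and 435 to 488 CPM in controls. The subunit called was ATP5MC1 (listed as ATP5G1), a c-ring subunit of ATP synthase. It had 87.9, 153 and 110 CPM with high cuff pressure, against 50.3, 46.3 and 47.8 CPM in controls (log2 fold change 1.28 ± 0.25, adjusted p = 0.0341). Of 19 genes for mitochondrial RNA processing and stability, the one called was TBRG4, a FASTK family protein that stabilises mitochondrial mRNAs in human cells, with 55.6, 83.3 and 68.3 CPM, against 34.0, 31.0 and 24.6 CPM in controls (1.21 ± 0.24, adjusted p = 0.0369). Without high cuff pressure replicate 1, 15 list genes were called higher and 11 lower, while leaving out any of the other 5 libraries gave 0 in both directions; over all genes, 9.68% were called higher and 8.97% lower without that replicate.

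The other nuclear lists had no member past the threshold. Genes of mitochondrial transcription (6 tested) had a median log2 fold change of -0.51, replication and nucleoid genes (10 tested) -0.07, tRNA synthetases (18) 0.09 and translation and insertion factors (11) 0.13. The transcription genes tested, of 8 listed, were TFAM, TEFM and MTERF1 to MTERF4, so that median does not cover the whole machinery. TFAM, which packages mitochondrial DNA and is needed to start its transcription, had 6.10, 4.94 and 7.34 CPM with high cuff pressure, against 10.8, 12.1 and 12.1 CPM in controls; the groups did not overlap, but it did not pass (-0.92 ± 0.29, adjusted p = 0.0891). Biogenesis regulators (10 tested) had a median of -0.54. PPARGC1A, a co-activator of mitochondrial biogenesis in that list, had 36.3, 15.9 and 10.5 CPM, against 36.6, 65.1 and 59.5 CPM in controls (-1.36 ± 0.47, adjusted p = 0.107). PPRC1, which had the smallest p of the same list, went the other way. It had 57.1, 51.1 and 80.2 CPM, against 36.3, 42.0 and 26.4 CPM in controls (0.85 ± 0.27, adjusted p = 0.0938). Mitophagy and dynamics genes (12 tested) had a median of -0.48 and proteostasis genes (8 tested) -0.02. TFAM, PPARGC1A and PPRC1 were singled out after their values were seen. The share of all genes that, like TFAM, were lower in CPM without overlap was not taken.

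The authors' deposited table, which lists 19001 genes, gave a q-value under 0.05 to 19 of the 37 mitochondrial rows and to 1690 genes in all. The 19 were the 13 mRNAs and 6 tRNA-length rows, with 0 of the rRNA-length rows.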

How the data were processed

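PolyA RNA of 6 rabbit airway samples was sequenced on a DNBSEQ-T7 after VAHTS Universal V6 library preparation, in a single batch, per the labels' protocols. Per the submitters' processing notes, HISAT2 2.0.4, StringTie 1.3.3b and edgeR were used, with no role stated. The genome build, the use of strand and the way reads were counted are not given in the sources. Raw counts per gene were deposited by the authors together with FPKM, as named in the file headers. A second deposited table gives the authors' q-value per gene. Control replicate 3 carries the library number 4 and no library the number 3, so the numbers' meaning is uncertain.

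Counts of 29587 genes were fitted with edgeR 4.0.16 in R 4.3.3: filterByExpr (13724 genes left), TMM factors, robust glmQLFit and glmQLFTest of high cuff pressure over control, calling genes at a Benjamini-Hochberg adjusted p under 0.05. The standard error is the log2 fold change over the square root of F. The fit code was run on simulated counts with changes set in genes picked at random. That run set no shift of the mitochondrial rows as a group, so it does not bear on the calls reported here. A second fit took each library's mitochondrial total as its size. Shares and ratios used raw counts, per base of row length where stated, with exact two-sided permutation tests over libraries. RNA classes follow row names and lengths. The mitochondrial rows, gene lists and cell type markers were chosen with earlier results of these data known; all mitochondrial rows are accounted for, and called members of the nuclear lists are named (of 190 listed, 141 had a row, 12 by an older symbol). Alternatives were RLE factors, total counts only, scaling from nuclear genes, no filter, DESeq2 1.42.0, limma-voom (limma 3.58.1), a replicate block and leaving out each library. The gene reference table matched 0 identifiers, and no sequence is printed.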

Additional observations from a re-analysis of the deposited data

How the results depend on the processing

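No log2 fold change tried (28) changed sign under a setting; of 47 shares, 16 did, all with groups that overlapped, among them those of COX2, ND3, ND4L, ND5 and ND6. Rows called higher, 5 as reported, numbered 10 with total counts only (9 mRNAs and 1 tRNA-length row, with the median of all genes at -0.40), 15 without the filter, 17 with DESeq2 and 15 with limma-voom, and 0 to 13 when a library was left out; scaling from nuclear genes gave 7. Over all genes, 3.67% were called higher as reported, 2.84% with total counts only, 2.65% without the filter and 3.85% with scaling from nuclear genes. The share was 10.6% with DESeq2, 3.78% with limma-voom and 0 to 9.68% when a library was left out. Log2 fold changes over all settings were 1.45 to 2.95 for the mRNAs and 0.60 to 1.66 for the rRNA-length rows. Nuclear list genes called higher numbered 2, against 1 with total counts only, 9 with DESeq2 and 0 to 15 when a library was left out, and those called lower 0, against 11, 9 and 0 to 11; over all genes 1.62% were called lower, against 9.04%, 8.53% and 0 to 8.97% in those settings. Relative to the mitochondrial total, rows called higher (0) numbered 0 to 2 and those called lower (2) numbered 0 to 2 when a library was left out. On that scale 0.67% of all genes were called higher and 90.7% lower with all libraries. These shares were not taken with a library left out, so the counts have no base to be read against.

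The difference in mitochondrial percent was 26.5 points without the most abundant nuclear genes and 26.3 points in FPKM. Per base, differences were 0.73 points for the mRNA share, -0.71 for rRNA, -0.0196 for tRNA, -1.08 for complex I, -5.67 for complex V and 0.0112 for the minus strand; the cause was not tested.

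Same-number libraries showed no positive correlation, at -0.32, -0.24 and -0.27, against -0.15 to 0.37 for other pairs across the groups. These were correlations of deviations from group means, which constrain each other, so they cannot show whether the samples were paired. With the replicate block, 0 mitochondrial rows and 0 nuclear list genes were called higher (1.44% of all genes). Relative to the mitochondrial total, 0 rows were lower with the block, in a fit where the share of all genes was not taken. The depth of tRNA-length rows, with 130 to 1070 counts a library, limits what can be said of single rows.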
